A study of Mus musculus with 24 samples.

Results

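The genes that make and package the fast transmitters GABA and glutamate were followed in the mouse pituitary gland. They are 6 genes: Gad1, Gad2, Slc32a1, Slc17a6, Slc17a7 and Slc17a8. Every probe that the platform annotation assigns to one of these symbols was taken, which gave 11 of the 45281 probes on the array. Of these, 6 probes of 5 genes passed the detection filter, and Gad1 was the gene with no probe above it. The study measured pituitary RNA from 24 mice aged 8 weeks, of a mixed C57Bl6j 129S2SvPas strain, with 1 array for each mouse. Genotype and sex gave 4 groups: 6 wild-type and 6 mutant males, and 6 wild-type and 6 mutant females. Mutants lacked Cga, the gene of the common alpha subunit of thyrotropin and the gonadotropins, and wild types were their littermates. No treatment is named for any group. The labels name no allele or promoter for the mutation and no litter for any mouse. The whole gland was homogenized, so nerve endings and the posterior and intermediate lobes are not set apart from the hormone cells.

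Gad1 and Gad2 encode the glutamate decarboxylases GAD67 and GAD65, which turn glutamate into GABA. Slc32a1 encodes VGAT, the transporter that loads GABA and glycine into vesicles. Slc17a6, Slc17a7 and Slc17a8 encode VGLUT2, VGLUT1 and VGLUT3, which load glutamate. All of these carriers use the electrochemical gradient that the vacuolar proton pump builds across the vesicle membrane. Axons that hold GABA reach the intermediate and posterior lobes of the pituitary from the hypothalamus, and VGLUT2 has been described in gonadotropes and thyrotropes of the rat pituitary.

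The stretches upstream of the transcription start are shown for 4 of the 5 genes whose RNA differed in mutant females, Gad2, Slc32a1, Slc17a6 and Slc17a8. Of those shown, 3 fell and 1 rose. Slc17a7, which was also lower in mutant females but lay at the edge of detection, is not shown. Its stretch held 3 GC boxes, one of the motifs named below, so the stretches shown do not stand for all genes that fell. Each is 250 bases that end at the base before the start, 5′ to 3′ on the gene's strand, from RefSeq on build GRCm38.p6. Capitals mark every match to 1 of 5 motifs searched on both strands: AGCACCNNGGACAG (the core of the neuron-restrictive silencer RE1), AGGTCA (a nuclear receptor half-site), GGGCGG (a GC box), TATAAA and TGACGT (a cAMP response half-site). The Gad2 stretch is at chr2:22622077-22622326 on the plus strand, Slc32a1 at chr2:158610508-158610757 on the plus strand, the first Slc17a6 start at chr7:51621580-51621829 on the plus strand and the first Slc17a8 start at chr10:89621250-89621499 on the minus strand.
Gad2: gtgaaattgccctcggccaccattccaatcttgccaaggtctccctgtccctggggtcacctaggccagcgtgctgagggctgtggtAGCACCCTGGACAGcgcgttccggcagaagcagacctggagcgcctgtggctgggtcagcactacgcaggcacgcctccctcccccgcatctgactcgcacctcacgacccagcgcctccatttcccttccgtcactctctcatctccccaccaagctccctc
Slc32a1: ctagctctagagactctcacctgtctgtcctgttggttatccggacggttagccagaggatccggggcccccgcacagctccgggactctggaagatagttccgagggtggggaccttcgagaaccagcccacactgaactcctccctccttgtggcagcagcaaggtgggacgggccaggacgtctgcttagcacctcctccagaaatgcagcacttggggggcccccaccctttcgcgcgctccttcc
Slc17a6: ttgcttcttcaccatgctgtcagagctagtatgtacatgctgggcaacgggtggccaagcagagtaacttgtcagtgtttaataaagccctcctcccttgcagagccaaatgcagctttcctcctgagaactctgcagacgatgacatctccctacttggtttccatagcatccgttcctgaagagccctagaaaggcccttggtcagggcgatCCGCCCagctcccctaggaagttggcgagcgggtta
Slc17a8: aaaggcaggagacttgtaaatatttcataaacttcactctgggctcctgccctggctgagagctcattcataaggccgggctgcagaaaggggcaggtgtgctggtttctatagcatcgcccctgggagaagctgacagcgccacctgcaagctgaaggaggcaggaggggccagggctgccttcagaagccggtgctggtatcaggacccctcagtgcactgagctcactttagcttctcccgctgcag
Gad2 held the only RE1 core among the member promoters, AGCACCCTGGACAG at positions -163 to -150 from the start, a match found in 15 of 32851 RefSeq promoter windows (0.0457%). Slc17a6 held 1 GC box, read on the other strand as CCGCCC at -36 to -31, a motif in 32.7% of windows. Slc32a1 and Slc17a8 held none of the 5 in these stretches. For the other motifs the share of windows was 14.0% for AGGTCA, 12.4% for TATAAA and 6.47% for TGACGT. G and C made up 64% of the Gad2 stretch, 62.4% of Slc32a1, 53.2% of Slc17a6 and 57.2% of Slc17a8. A match describes letters only; no binding was measured.

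Array quality bears on the dim members. The median number of beads per probe was 42 to 44 on every array, and 39.7% to 50.8% of probes were detected, meaning a detection p-value under 0.05 against the array's negative controls. The spread (SD) of the raw background was 15.4 to 23.0 in the 6 wild-type males and 9.42 to 12.2 on the arrays of the other groups, so the values did not overlap. The lowest normalized signal called detected accordingly lay between 5.52 and 5.79 in wild-type males, between 5.32 and 5.46 in wild-type females and between 5.11 and 5.28 in either mutant group (log2 intensity). For wild-type males the background spread and the group cannot be told apart. Cga was 5.14-fold lower in mutant males and 4.28-fold lower in mutant females than in wild types, the direction that the genotype labels give; the position of its probe relative to the deletion was not used here. In whole tissue, fewer cells that hold an RNA and less of that RNA in each cell cannot be told apart.

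Signal was unevenly spread over the probes. All 4 Gad1 probes lay near the background. ILMN_1234988 was detected on 1 array, a mutant male, and the other 3 on 0 of 24. Their raw bead intensities ranged from 75.2 to 122, against array background means of 83.4 to 115. Gad1 was thus not above background, which does not show that the RNA is absent. Gad2 had a pair of probes that disagreed. ILMN_2460754 was detected on all 24 arrays, with raw intensities from 241 to 554, while ILMN_2668908 was detected on 0, with 73.6 to 103. The annotation gives the RefSeq transcript NM_008078 for the undetected probe and no accession for the detected one. Which part of the gene each probe reads was not used here, so every Gad2 value below is that of ILMN_2460754 alone. Both Slc17a6 probes were detected on all 24 arrays, and their values moved together (r = 0.977 over 24 arrays after group means were subtracted, a description of 1 gene read by 2 probes). Slc17a8 was detected on 24 arrays, Slc32a1 on 13 and Slc17a7 on 9.

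**Figure D1:**
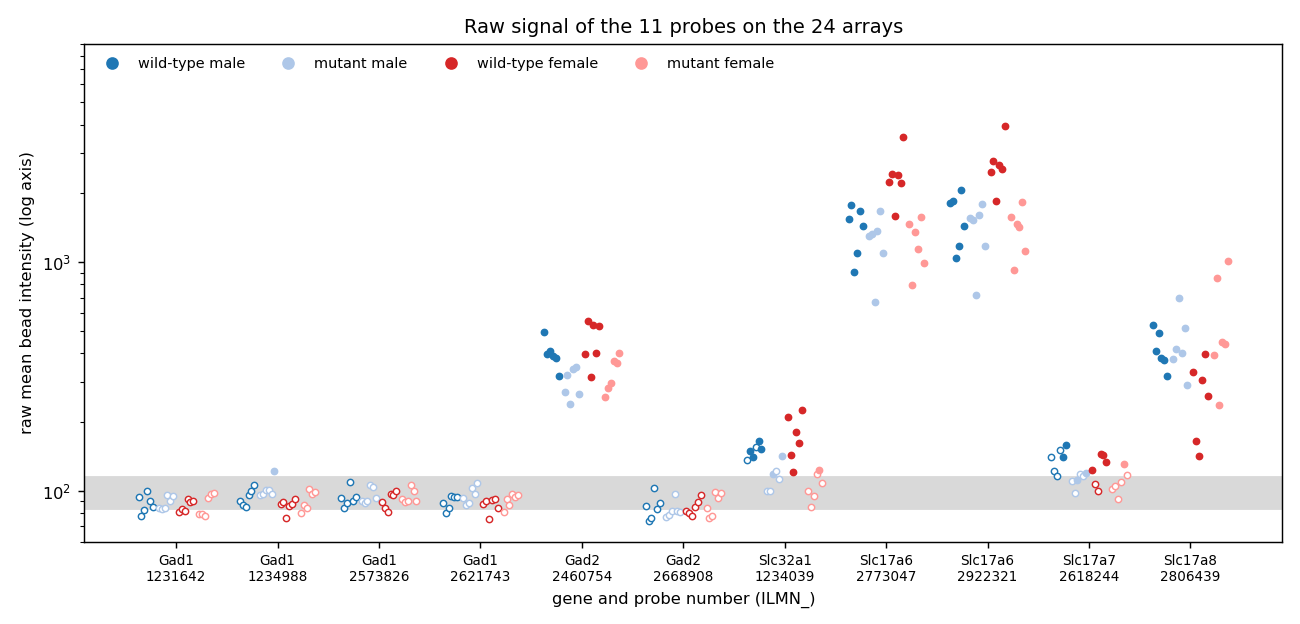
Raw mean bead intensity (log axis) of each of the 11 probes, 1 point per array and 4 groups of 6 arrays. Filled points were detected (p under 0.05), open points were not, and the grey band is the range of array background means, 83.4 to 115. The Gad1 probes and 1 Gad2 probe lie in or close to the band, with points on either side of it, and the Slc17a6 probes lie far above it.

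The first question was whether the loss of Cga moved these genes in either sex. In mutant females 4 of the 5 measured genes were lower than in wild types and Slc17a8 was higher. In mutant males 3 were lower, Gad2, Slc32a1 and Slc17a7, and none was higher. A gene was called when its limma p, adjusted by Benjamini-Hochberg over the whole array, was under 0.05, and such calls were common in both comparisons. In females 48.3% of all 12027 genes were called, 25.5% lower and 22.8% higher, and in males 51.5%, 26.5% lower and 25.0% higher. Those shares stand beside 4 of 5 lower in females and 3 of 5 in males, with no test made of either count. Slc17a7 is in both counts. It was detected on 9 arrays, 4 of them wild-type females, where the filter asks for 6. It thus passed the filter only through the group where its mean was highest. Its calls in both sexes were lost with signals raised to a common floor, as given below, so neither count is read as a result. The median difference of the 5 genes on the log2 scale was -0.88 in females, the value of Gad2, and -0.49 in males, the value of Slc17a7. Over all genes the medians were -0.03 and -0.01. The male median is thus that of a gene at the edge of detection and is not read as a result. Averaged over the sexes, 4 of the 5 were lower, where 60.2% of all genes were called, 32.2% lower and 28.1% higher, and Slc17a8 missed the threshold (0.52 ± 0.23, SE; adjusted p = 0.053).

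Gad2, the synaptic form of glutamate decarboxylase, was lower in mutants of both sexes. In wild-type males its normalized log2 intensity was 7.91 at the lowest, 8.25 at the median and 8.47 at the highest, against 7.37, 7.66 and 7.90 in mutant males. In wild-type females it was 8.44, 8.76 and 9.13, against 7.48, 8.00 and 8.15 in mutant females. Every mutant array was below every wild-type array of the same sex, although in males the nearest pair stood almost level. The groups did not overlap for 30.7% of all genes in males and 23.6% in females. The male difference was -0.59 ± 0.14 (SE; 1.51-fold lower; adjusted p = 0.0013). The female difference was -0.88 ± 0.14 (1.84-fold lower; adjusted p = 1.5e-05). In females 505 of 12027 genes had a more negative difference, and in males 1360. The effect did not pass the test for a difference between the sexes (-0.29 ± 0.20; 95% interval -0.71 to 0.13; adjusted p = 0.35).

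Slc32a1, the vesicular GABA transporter, fell in mutant females to near the detection limit. Its log2 intensity was 6.16 at the lowest, 6.65 at the median and 7.39 at the highest in wild-type females, all 6 of them detected, and 4.59, 4.91 and 5.28 in mutant females, of which 1 was detected. No mutant female reached the lowest wild-type female. The measured difference was -1.81 ± 0.21 (3.51-fold lower; adjusted p = 9.1e-08), with 5 of 6 mutant arrays undetected, so its size is set in part by that limit. With every signal raised to a common floor of 5.79, the highest of the arrays' detection limits, all 6 mutant females sat at the floor and the difference was -0.97 (adjusted p = 3.4e-05).

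In males the Slc32a1 difference was smaller and the groups overlapped. Wild-type males gave 5.31, 6.03 and 6.29 with 4 arrays detected, and mutant males 4.85, 5.05 and 5.95 with 2 detected. The 2 mutant males at 5.56 and 5.95 stood among the wild types, and the other 4 lay below them all. The difference was -0.69 ± 0.21 (1.62-fold lower; adjusted p = 0.0079). It lost the call with the common floor (-0.21; adjusted p = 0.29), with the background spread as a covariate (-1.10 ± 0.47; adjusted p = 0.12) and among the 12 arrays of higher raw background (-0.48; adjusted p = 0.15).

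Slc17a6, the VGLUT2 gene, fell in mutant females. With the brighter probe, ILMN_2922321, wild-type females gave 11.25 at the lowest, 11.46 at the median and 12.22 at the highest, and mutant females 9.59, 10.38 and 10.79. The groups did not overlap, and the highest wild-type female stood apart from the other 5. The difference was -1.31 ± 0.22 (2.49-fold lower; adjusted p = 2.5e-05), with 228 of 12027 genes more negative. The other probe, ILMN_2773047, gave -1.32 (2.50-fold lower; adjusted p = 3.0e-05 when every kept probe was fitted). In males the values were 10.05, 10.44 and 11.06 in wild types and 9.33, 10.30 and 10.56 in mutants, with overlapping groups. The male difference of -0.32 ± 0.22 did not pass the test (95% interval -0.78 to 0.14; adjusted p = 0.24). A fall of up to 0.78 on the log2 scale is inside that interval.

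Slc17a7, the VGLUT1 gene, lay at the edge of detection. Wild-type males gave 5.34, 5.55 and 6.19 with 2 arrays detected, mutant males 4.91, 5.11 and 5.33 with 2 detected, wild-type females 5.29, 5.85 and 6.10 with 4 detected, and mutant females 4.81, 5.04 and 5.50 with 1 detected. Male groups did not overlap by a narrow margin, and female groups overlapped. The male difference was -0.49 ± 0.15 (adjusted p = 0.0090), and the female one -0.69 ± 0.15 (adjusted p = 0.00058). Both calls rest on signals below most arrays' detection limits: raised to the common floor, all 12 mutant arrays were at the floor and neither difference passed (males -0.07, adjusted p = 0.41; females -0.12, adjusted p = 0.12). Among the 12 arrays of lower raw background the male difference was -0.32 (adjusted p = 0.26).

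Slc17a8, the VGLUT3 gene, went the other way in females. Wild-type females gave 6.69 at the lowest, 7.83 at the median and 8.45 at the highest, and mutant females 7.69, 8.35 and 9.61. The groups overlapped: 2 wild-type females, at 6.69 and 6.74, lay well below the other 4, which were at 7.68 to 8.45, and 2 mutant females, at 9.46 and 9.61, lay above all wild types. The difference was 0.99 ± 0.32 (1.99-fold higher; adjusted p = 0.013), and 592 of 12027 genes had a larger rise. It did not pass within either set of arrays split by raw background (1.14, adjusted p = 0.066 in the lower set and 0.55, adjusted p = 0.25 in the higher set). In males there was no called difference (0.04 ± 0.32; 95% interval -0.62 to 0.70; adjusted p = 0.93), with 7.90, 8.29 and 8.79 in wild types and 7.78, 8.21 and 9.29 in mutants. Slc17a8 also varied most within groups: its residual SD of 0.62 was larger than that of 99.1% of genes, against 0.26 for Gad2.

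**Figure D2:**
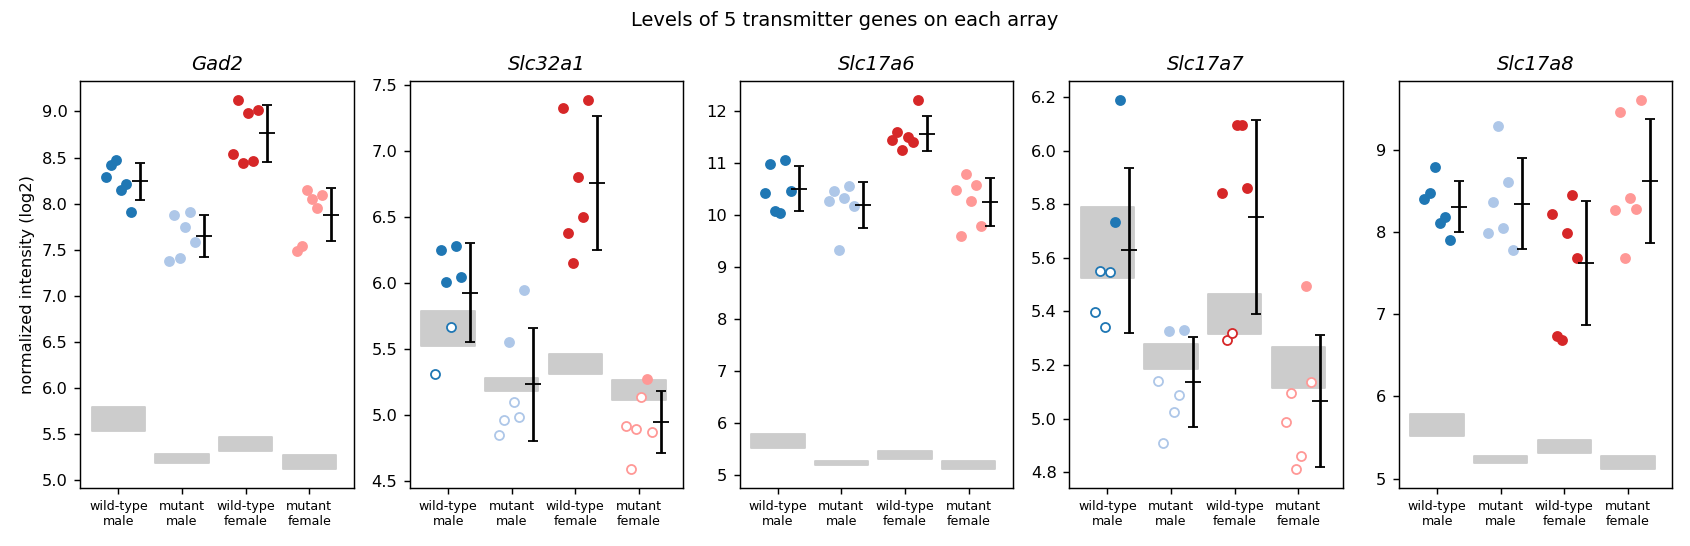
Normalized log2 intensity of the 5 measured genes on each of the 24 arrays, with 1 panel per gene, its own vertical scale, and the mean ± SD of the 6 arrays beside each group. Open points were not detected, and grey boxes span the lowest detected signal of the group's arrays. Most mutant points of Slc32a1 and Slc17a7 lie at or below their boxes, and wild-type females are the highest group for Gad2, Slc32a1 and Slc17a6.

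The male comparison includes the noisier wild-type male arrays, whose background spread did not overlap that of the other groups. A refit with that spread as a covariate thus cannot tell spread and group apart. The cause of a call lost in it was not tested. With the background spread of each array as a covariate none of the 5 genes was called in males, and 1902 of all 12027 genes were, against 6197 without it. The male differences of Gad2 (-0.67 ± 0.33, adjusted p = 0.17) and Slc32a1 kept their sign with larger errors, and that of Slc17a7 was -0.32 ± 0.34 (adjusted p = 0.57). In females, where the background spread of the groups overlapped, all 5 calls held with the covariate.

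The next question was whether males and females differed before and after the loss of Cga. Wild-type females had more Gad2, Slc32a1 and Slc17a6 RNA than wild-type males, and Slc17a7 and Slc17a8 were not called. For scale, 27.3% of all genes were called between wild-type sexes, 12.5% higher in females. Slc17a6 differed most, by 1.06 ± 0.22 (2.08-fold higher in females; adjusted p = 0.00091). Its groups did not overlap, as for 11.1% of genes, and 118 of 12027 genes had a larger female excess. Slc32a1 was 0.83 ± 0.21 higher (1.78-fold; adjusted p = 0.0048) and Gad2 0.52 ± 0.14 higher (1.43-fold; adjusted p = 0.0089), both with overlapping groups. For Slc17a8 the difference was -0.68 ± 0.32 (adjusted p = 0.12), and for Slc17a7 0.12 ± 0.15 (adjusted p = 0.59). These contrasts set the noisier wild-type male arrays against others, and with the background spread as a covariate no member was called (Slc17a6 1.04 ± 0.48, adjusted p = 0.29). There too the spread and the group cannot be told apart.

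Among mutants no member was called between the sexes by limma, with 0 of 5 at an unadjusted p under 0.05 and 0 called in each of 37 refits under other settings or without 1 array. Over all genes 0.0665% were called, or 8 genes, 0.0333% in each direction. The differences, female minus male, were 0.23 ± 0.14 for Gad2, -0.29 ± 0.21 for Slc32a1, 0.06 ± 0.22 for Slc17a6, -0.07 ± 0.15 for Slc17a7 and 0.27 ± 0.32 for Slc17a8. The 95% interval for Slc17a6 ran from -0.40 to 0.52, which leaves out the excess of 1.06 seen in wild types. For Slc32a1 it ran from -0.72 to 0.15, with 2 mutant males and 1 mutant female detected. With signals raised to the common floor its difference was -0.03.

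The genotype effect itself differed between the sexes for 2 of the 5 genes, where 13.6% of all genes were called, 6.36% with a lower and 7.25% with a higher value in females. The female effect minus the male effect was -1.12 ± 0.30 for Slc32a1 (adjusted p = 0.014) and was -0.997 ± 0.32 for Slc17a6 (adjusted p = 0.036). Both values draw on all 4 groups, wild-type males among them. With signals raised to the common floor the Slc32a1 value was smaller, -0.76 (limma adjusted p = 0.027), and Slc17a6 was no longer called (adjusted p = 0.055). The Slc17a6 call was lost without 1 array in 11 of 24 cases, with adjusted p from 0.0078 to 0.068, and with no detection filter (adjusted p = 0.060). Within the sets of 12 arrays split by raw background neither call held, with values of about the same size: -1.004 and -1.07 for Slc32a1 (adjusted p = 0.37 and 0.13), and -0.84 and -1.09 for Slc17a6 (adjusted p = 0.58 and 0.088), in the lower and the higher set. Neither held with the background spread as a covariate (Slc32a1 -0.76, adjusted p = 0.44; Slc17a6 -0.98, adjusted p = 0.34). With the covariate, the spread and the wild-type male group again cannot be told apart. For Slc17a8 the difference of effects was 0.95 ± 0.45 (adjusted p = 0.16).

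**Figure D3:**
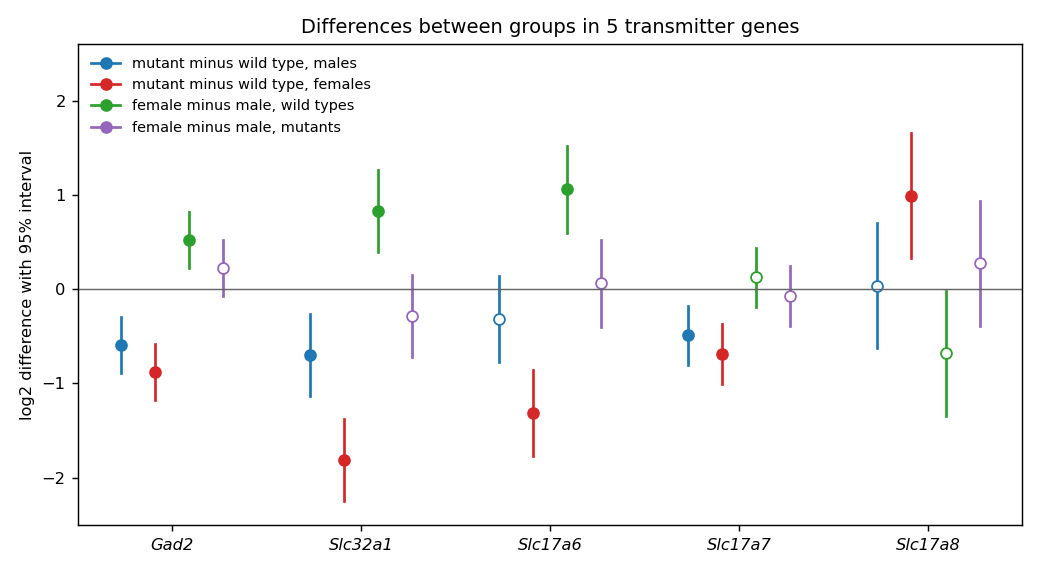
Log2 differences with 95% intervals for 5 genes in 4 comparisons, each between groups of 6 arrays. Filled points passed an adjusted p under 0.05 over 12027 genes. Female genotype effects (red) lie farther from 0 than male ones (blue) for Slc32a1 and Slc17a6, and the sex differences of mutants (purple) all cross 0.

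By group means, Gad2 and Slc17a6 had the same order of levels: wild-type females, wild-type males, mutant females and mutant males. The mutant groups did not differ beyond their spread, and for Slc17a6 neither did wild-type and mutant males. Slc32a1 had the same first 2 places, followed by mutant males and mutant females. Slc17a7 had wild-type females and males together above both mutant groups. Slc17a8 ran from mutant females (8.62 ± 0.75, SD, n = 6) through mutant males (8.35 ± 0.55) and wild-type males (8.31 ± 0.31) to wild-type females (7.63 ± 0.75), and of the pairs tested the first and last alone passed.

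Across all 24 arrays Gad2, Slc32a1 and Slc17a6 followed one another, with r of 0.75 to 0.79 for the 3 pairs, and Slc17a8 ran against them, with r of -0.41 to -0.66. These arrays share the 4 group means. With group means subtracted, r was 0.09 for Gad2 and Slc32a1, 0.41 for Gad2 and Slc17a6, 0.26 for Slc32a1 and Slc17a6 and -0.48 for Slc17a6 and Slc17a8. For Slc17a8 it was -0.09 with Gad2 and 0.12 with Slc32a1, so the opposite course of these pairs was not seen within groups. Slc17a7 was closest to Slc32a1 (0.79, and 0.49 with group means subtracted), the other gene near the detection limit.

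The genes whose levels over the 24 arrays were most like each member were ranked by Pearson's r among all 12027 genes. For Gad2 they were Chst8 (0.90), a sulfotransferase that modifies glycoprotein hormones, then Gpm6b, Myo5c and Cryba2 (each 0.86). For Slc32a1 they were Rasgef1c (0.91), Cdc42ep2 (0.91), 8430426J06Rik (0.90) and the axon guidance ligand gene Slit2 (0.90). For Slc17a6 they were Zfp24 (0.87), the Polycomb gene Bmi1 (0.86), Phldb2 (0.85) and Bdh1 (0.84). For Slc17a7 they were Lpgat1, Tmem51, Fam166c and Pdcd4 (0.86 to 0.89). For Slc17a8 they were Galnt17 (0.81), the nicotinic receptor subunit gene Chrnb2 (0.80), the synaptic scaffold gene Dlg2 (0.80) and Alkbh8 (0.79). With group means subtracted, Dlg2 kept an r of 0.80 with Slc17a8 and Zfp24 one of 0.76 with Slc17a6, while Myo5c dropped to 0.30 with Gad2.

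The group means of Chst8, nearest to Gad2, were 11.15 (wild type) and 10.23 (mutant) for males, and 12.76 and 10.23 for females. For Phldb2, near Slc17a6, they were 6.76 and 6.18 for males, and 8.33 and 6.31 for females. Dlg2, near Slc17a8, had its lowest mean in wild-type females, 7.37, against 8.36 in the mutant females, with 7.90 and 8.10 for males.

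Genes of the same pathways were counted beside the members, to be read against the shares over all genes, 26.5% lower and 25.0% higher in males and 25.5% lower and 22.8% higher in females. No count below was tested as a count. Of 9 measured genes of GABA and glutamate metabolism (14 listed), 5 were lower and 1 higher in mutant males, and 2 were lower and 2 higher in mutant females. The median was -0.32 in males and -0.10 in females. Got2, the mitochondrial aspartate aminotransferase, fell in both sexes (-0.46 ± 0.08 and -0.51 ± 0.08). Pdxk, the kinase that makes the pyridoxal phosphate cofactor of glutamate decarboxylase, fell in males (-0.61 ± 0.10) and in females (-0.24 ± 0.10; adjusted p = 0.049). The GABA transaminase gene Abat fell in males (-0.33 ± 0.12) and was not called in females (-0.10 ± 0.12). Slc38a1, a glutamine transporter, rose 2.48-fold in males and 2.24-fold in females.

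Carriers of the plasma membrane included calls in either direction. Of 6 measured (9 listed), 1 was higher and 2 lower in males, and 1 was higher and 1 lower in females. Slc6a11, a GABA uptake transporter, was detected on all 12 wild-type arrays and on 0 of 12 mutant arrays. It was at least 3.87-fold lower in mutant males (adjusted p = 9.9e-15) and at least 1.96-fold lower in mutant females (adjusted p = 5.4e-10), each bound taken against the dimmest detected signal of an array or the probe's own, whichever was higher. Slc1a1, the glutamate transporter EAAC1, was at least 2.41-fold higher in mutant males (adjusted p = 1.3e-07). Its rise in females was 2.79-fold. Slc1a7 fell 2.98-fold in males and was not called in females (-0.34 ± 0.21). A further list joined other vesicular transporters with relatives of the VGLUT family that are not vesicular and with Slc6a5, the glycine transporter of the plasma membrane. Of its 12 genes 4 were measured, and 1 rose in each sex, the polyamine transporter Slc18b1 in males (0.49 ± 0.10) and the nucleotide transporter Slc17a9 in females (0.49 ± 0.14). Slc6a5 and the monoamine transporter Slc18a1 were detected on 0 arrays, and Slc18a2 on 1.

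Receptor genes for the 2 transmitters followed. Of 22 listed GABA receptor and anchoring genes 5 were measured, with 3 higher and 2 lower in males and 2 higher in females. Gabrb1 rose in both sexes (0.47 ± 0.10 in males, 0.94 ± 0.10 in females), and Gabrq was at least 1.40-fold higher in males and at least 1.60-fold higher in females, undetected on all wild-type arrays. Gabrg3 fell in males (-0.56 ± 0.16) and was not called in females (0.21 ± 0.16). Of 26 listed glutamate receptor genes 13 were measured, with 1 higher and 3 lower in males and 2 higher and 3 lower in females, a smaller called share than the 51.5% and 48.3% of all genes. Gria1, an AMPA receptor subunit, was 1.52-fold lower in mutant males (adjusted p = 0.0043). In mutant females it was 2.20-fold lower (adjusted p = 4.8e-06), and its groups did not overlap.

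Of 16 measured synaptic vesicle and fusion genes (20 listed), 5 rose and 0 fell in males, where the called share was below that of all genes (51.5%), and 6 rose and 2 fell in females, near the 48.3% of all genes. The medians were 0.11 and 0.18. Sv2b rose 2.19-fold in males and 2.99-fold in females, and the calcium sensor Syt1 2.06-fold and 2.41-fold. Rab3a rose by 0.74 ± 0.11 and 0.52 ± 0.11. Cplx1 rose only in the male comparison (1.02 ± 0.19, against -0.42 ± 0.19 in females), and that difference of effects passed its own test (-1.44 ± 0.27; adjusted p = 0.00086). Syn2, synapsin II, fell 2.12-fold in females and was not called in males (-0.18 ± 0.18), and here too the effects differed (-0.90 ± 0.25; adjusted p = 0.016).

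Of 14 measured subunits of the vacuolar proton pump (16 listed), 5 were higher and 3 lower in males, and 6 were higher and 1 lower in females, with a median of 0.14 in each. The called shares were near those of all genes, 51.5% and 48.3%. Atp6v0e2 rose by 0.73 ± 0.11 in males and 0.78 ± 0.11 in females, Atp6ap2 by 0.37 ± 0.07 and 0.60 ± 0.07, and Atp6v1b2 fell in both (-0.44 ± 0.07 and -0.29 ± 0.07). Among 11 listed transcription factors of GABA neurons only Gata2 was measured, and it is also a factor of thyrotropes and gonadotropes. It rose 1.78-fold in males and 4.62-fold in females, so it moved opposite to Gad2 and Slc32a1. Dlx1, Dlx2, Dlx5, Dlx6, Gata3, Tal1 and Ptf1a were detected on 0 arrays and Lhx6 on 1.

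**Figure D4:**
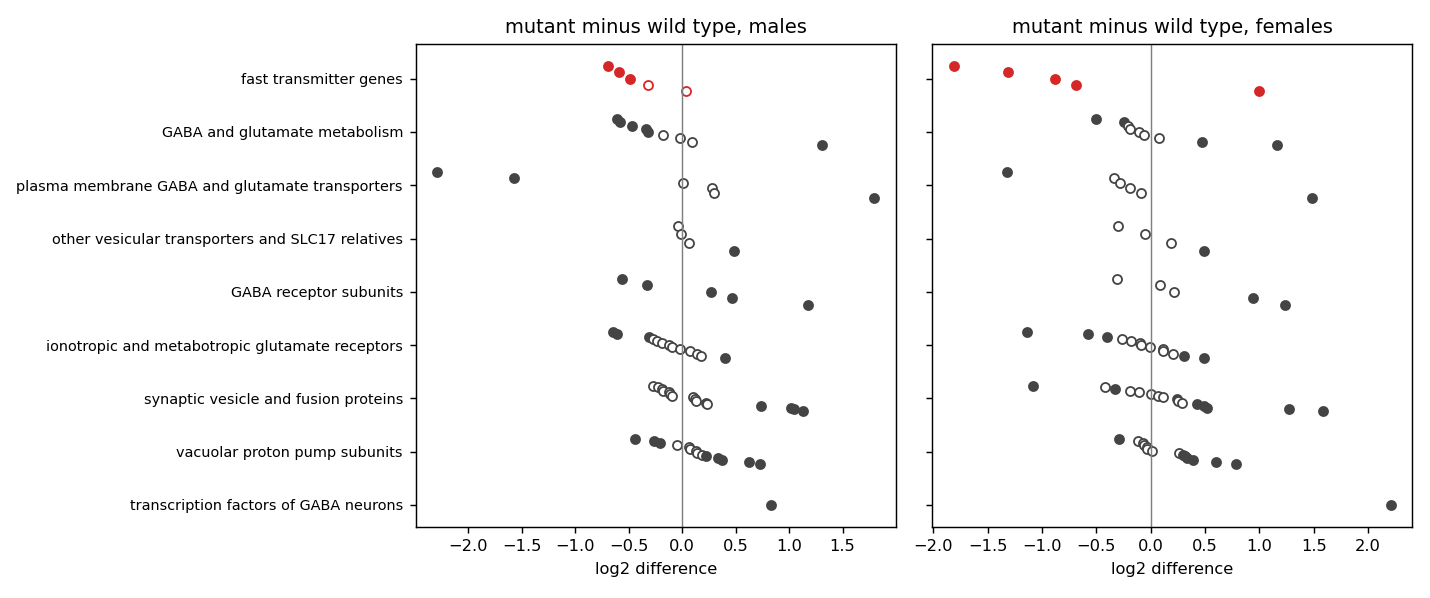
Log2 difference between mutants and wild types for every measured gene of the 6 transmitter genes (red) and 8 lists of related genes (grey), in males on the left and females on the right. Filled points passed an adjusted p under 0.05 over 12027 genes. The red points lie below 0 except for Slc17a8, while called synaptic vesicle genes lie mostly above 0.

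Markers of nerve tissue and of other cells in the gland were read beside the members. Genotype counts of markers, here and for glia and hormone cells below, stand beside the shares over all genes. Those were 26.5% lower and 25.0% higher in males, and 25.5% lower and 22.8% higher in females. No marker count was tested, and none is read as a result. Of 13 listed neuron markers 7 were measured, 3 higher and 2 lower in males and 2 higher and 1 lower in females, and Nefl, Tbr1 and Neurod6 were detected on 0 arrays. The summed level of the 7 ran from 11.74 to 12.20 across wild-type males and from 11.84 to 12.22 across mutant males. For females the ranges were 11.60 to 12.13 (wild type) and 11.84 to 12.22 (mutant), so genotypes overlapped in each sex. The sum mostly follows Map2, the brightest of the 7, with group means of 11.29 to 11.55. Under it single markers moved in opposite directions. Elavl3 ran from 6.28 to 6.94 in wild-type and 5.48 to 6.03 in mutant males, and from 6.47 to 6.97 and 5.47 to 5.93 in females. Elavl4 was higher in mutants, at 5.31 to 5.67 and 6.68 to 7.15 in males, and 5.77 to 6.56 and 6.83 to 7.40 in females. Of 8 markers of hypothalamic neurons, 2 were measured, Oxt and Avp, and Hcrt, Pmch, Crh and Trh were detected on 0 arrays. Oxt, the oxytocin gene, fell in males (-1.76 ± 0.20, log2) and in females (-2.46 ± 0.20), and Avp was not called (0.11 ± 0.24 and -0.34 ± 0.24). For males the sum of the 2 ran from 8.41 to 9.09 in wild types against 6.60 to 8.01 in mutants, and for females from 8.73 to 9.36 against 6.61 to 7.59. Oxt alone of this list moved with Gad2 and Slc32a1, and its part in their fall was not tested.

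Marker lists of glia gave mixed values, and in whole gland they are not tied to 1 lobe. Of 6 astrocyte and pituicyte markers 4 were measured, with 1 higher (Aqp4) and 1 lower (Aldh1l1) in each sex. Their sum ran from 8.16 to 8.46 in wild types and 8.03 to 8.48 in mutants among males, and from 7.89 to 8.26 and 7.98 to 8.33 among females. Of 6 oligodendrocyte markers 4 were measured. The claudin gene Cldn11 fell in both sexes (-1.001 ± 0.18 in males, -0.65 ± 0.18 in females) and the myelin gene Mbp in females (-0.84 ± 0.11), while Mag and Mobp were not called in either sex and Mbp was not called in males. The median difference of the 4 was 0.04 in males and -0.33 in females. Their sum was lower in mutants without overlap, at 10.31 to 10.95 against 11.03 to 11.43 among males and 10.19 to 10.66 against 10.91 to 11.26 among females. That sum mostly follows the brightest of the 4, Cldn11 with group means of 9.64 to 10.70 and Mbp with 8.94 to 9.78. It does not speak for Mag and Mobp. Mog was detected on 0 arrays. The melanotrope and corticotrope markers, 3 of 5 measured, had 0 called in males, and 1 higher and 1 lower in females. They gave overlapping sums, 14.81 to 15.12 in wild types and 14.93 to 15.15 in mutants among males, and 14.62 to 15.09 and 14.83 to 15.06 among females. These sums mostly follow Pomc, with group means of 14.89 to 15.00. In females the mean of Tbx19 was 9.52 in wild types and 8.92 in mutants, and that of Oacyl 5.64 and 6.57. Pax7, which defines melanotropes, was detected on 0 arrays.

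The hormone cells that have been tied to VGLUT2 were followed by 4 markers each, all measured. Of the gonadotrope markers, 2 were lower and 0 higher in males, and 2 were lower and 2 higher in females. Lhb and the GnRH receptor gene Gnrhr fell in both sexes (Gnrhr -1.43 ± 0.27 in males and -1.65 ± 0.27 in females), while Fshb rose in females (2.11 ± 0.34) and was not called in males (-0.43 ± 0.34). The gonadotrope sum ran from 14.14 to 14.63 in wild types and 12.99 to 13.53 in mutants among males, and from 12.94 to 13.46 and 12.62 to 13.10 among females. It was highest in wild-type males and Slc17a6 in wild-type females, and a link between them was not tested. Lhb was the brightest of the 4 markers in every group, with means of 12.27 to 13.95, so the sum mostly follows Lhb. The thyrotrope sum, which includes Cga itself, was 15.45 to 15.70 in wild types and 15.23 to 15.30 in mutants among males, and overlapped among females (15.27 to 15.60 in wild types, 15.28 to 15.40 in mutants). That sum hides opposite changes: the other 3 thyrotrope markers rose in both sexes while Cga fell, with Tshb 1.41-fold higher in males and 2.12-fold higher in females, and the TRH receptor gene Trhr up by 4.53 and 4.95 on the log2 scale. Their part in the Slc17a6 difference was not tested. Of 3 somatotrope markers, 2 were lower in males and 3 in females, and their sum was lower in mutants of each sex without overlap, at 14.87 to 14.97 against 15.08 to 15.26 among males and 14.80 to 15.03 against 15.05 to 15.20 among females. Of 3 lactotrope markers, 2 were lower in males and 3 in females. The estrogen receptor gene Esr1 fell 4.13-fold and 6.32-fold, and its log2 differences, -2.05 and -2.66, are the medians of the 3. Group means of Angpt1 were 8.52 (wild type) and 6.12 (mutant) for males, and 9.72 and 6.01 for females. The prolactin gene Prl moved less: it fell in females (-0.50 ± 0.15) and was not called in males (-0.10 ± 0.15). The lactotrope sum overlapped between genotypes, at 14.29 to 14.88 in mutants and 14.68 to 14.95 in wild types among males, and 13.62 to 14.85 and 14.84 to 15.04 among females. The somatotrope sum mostly follows Gh, with group means of 14.87 to 15.05, and the lactotrope sum Prl, with 14.40 to 14.90. For Gh the means were 15.02 (wild type) and 14.87 (mutant) in males, and 15.05 and 14.87 in females. Its arrays overlapped between genotypes in each sex. By genotype, the called somatotrope and lactotrope markers were lower, as were the members that fell. In males Gh and Prl were not among those called. Between wild-type sexes, 2 of the 3 somatotrope markers were lower in females and 2 of the 3 lactotrope markers were higher. Over all genes those shares were 14.8% and 12.5%. Gad2, Slc32a1 and Slc17a6 were higher in wild-type females. The part of these cells in the differences of the members was not tested. Of 4 pancreatic islet markers, none was measured.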

How the data were processed

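The members, lists and tests were chosen with earlier results of these data known. Total RNA (500 ng) was labelled with biotin and hybridised to Illumina arrays, per the labels' protocols. Per the submitters' processing notes, GenomeStudio 2011.1 was used. The deposited table, per the file headers, holds mean bead intensity on a linear scale, the detection p-value against negative controls, the bead standard error and the number of beads. The authors also deposited a processed table, whose values were taken as linear intensity and transformed to log2 here; its column medians were 112.7 to 112.9, so its arrays had been scaled alike, by a method not given in the sources used here.

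The function neqc (limma 3.58.1, R 4.3.3; offset 16) corrected the background, normalized by quantiles and gave log2 values. A probe was kept at a detection p under 0.05 on at least 6 arrays, leaving 23133 probes. Of all probes, 34885 had 1 symbol in the platform annotation, 18 had several and 10378 had none, and 34807 matched RefSeq. Each of 12027 genes was read from its kept probe with the highest mean. The model (lmFit, eBayes) had 1 mean per group, and 6 comparisons were adjusted over all genes by Benjamini-Hochberg at 0.05. It was also run on simulated data with known changes and the same spread in every group. That setting lacks the larger background spread of wild-type males, so the run does not bear on the male calls. Named genes are the members, Cga, up to 4 called members of each list per direction, the 4 genes most like each member, and markers. The number of arrays limits the precision. Replicates are numbered by accession, since the labels tie none together, and p-values measure the spread between these mice. Alternatives changed the table, scaling, background correction, filter, probe, arrays and covariate.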

Additional observations from a re-analysis of the deposited data

Results flagged for a closer look

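The genotype effect on Slc32a1 and Slc17a6 differed between the sexes by the interaction term of the model: the female effect minus the male effect was -1.12 (adjusted p = 0.014) and -0.997 (adjusted p = 0.036) on the log2 scale. Neither call held with the background spread as a covariate or within either set of arrays split by raw background. For Slc17a6, 2 arrays stood apart from the other 5 of their group by Dixon's criterion at the 95% level. Mutant male 3 was at 9.33, where its group's other arrays lay between 10.18 and 10.56, and wild-type female 6 was at 12.22, where the others lay between 11.25 and 11.59. Of 20 groups tested, 2 had such an array, and chance alone gives about 1 in 20. Both arrays stood in the same place with the second Slc17a6 probe, at 9.22 and 12.02. Without wild-type female 6 the Slc17a6 difference of effects was no longer called, and without mutant male 3 it still was.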

How the results depend on the processing

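No difference of a member reversed its direction while called. The female calls of Gad2, Slc32a1 and Slc17a6 held in every refit run. With the raw background spread as a covariate, 0 members were called in males, 0 in the difference of effects and 0 between wild-type sexes, and 1902, 109 and 201 of all genes (4035 averaged over the sexes). Signals raised to a common floor, chosen after seeing the data, left 1 member called in males and 1 in the difference. Without a filter 1 was called in the difference, and without 1 array in turn 1 to 2. Arrays split by raw background, also chosen after seeing the data, gave 0 members in the difference in both sets and 0 between wild-type sexes in the lower set. In the lower set 3341 genes were called in males, 3819 in females, 87 in the difference, 759 between the sexes of wild types and 4 of mutants. In the higher set 3180 were called in females, 506 in the difference, 1302 between the sexes of wild types and 4 of mutants. Fitting only the groups compared gave 2 between mutant sexes. With every probe fitted, of 19425 probes 9720 were called in males, 8853 in females, 11255 averaged, 2739 in the difference and 5339 between wild-type sexes, a count of probes rather than genes. Without a covariate or split, these genes numbered 6197, 5808, 7242, 1637, 3288 and 8 for the 6 comparisons. Averaged over the sexes, Slc17a8 passed without 1 array in 10 of 24 cases (adjusted p 0.021 to 0.11), and Slc17a7 was lost with the covariate or the floor. The causes were not tested; splitting leaves fewer arrays. Signals near the detection limit bound what can be said of Slc32a1 in mutants and of Slc17a7 in all groups. No paired analysis was possible because the labels give no replicate numbers, and the chip as a block was not run because the column names give no chip.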
